A study of Homo sapiens with 4 samples.

Results

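The genes for 8 nuclear RNA-binding proteins were examined in RNA from fractionated HEK293T cells: SFPQ, NONO, PSPC1, RBM14, EWSR1, TAF15, TARDBP and MATR3. The members were chosen by symbol, as protein genes of paraspeckles and of the FET family together with TARDBP and MATR3, and each symbol matched 1 of the 51699 distinct gene identifiers in the deposited table. HEK293T cells derive from human embryonic kidney and express the large T antigen of SV40. Wildtype cells of this line were crosslinked with formaldehyde and split into a nuclear and a cytoplasmic fraction, with 2 biological replicates of each, so that 4 libraries were made in all. No drug or genetic change separated the groups, and crosslinking was common to all 4 libraries.

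Paraspeckles are small nuclear bodies that form around the long non-coding RNA NEAT1. SFPQ, NONO and PSPC1 are the 3 human members of the DBHS family, which pair with one another and assemble along NEAT1. RBM14 is a further paraspeckle protein with a prion-like domain. EWSR1 and TAF15 belong to the FET family, whose members bind RNA and take part in transcription and splicing. TARDBP encodes TDP-43, a splicing repressor that controls its own mRNA, and MATR3 encodes matrin 3, a protein of the nuclear matrix that binds RNA and DNA.

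The design set the cytoplasmic against the nuclear fraction. That comparison was not made here. The 5 numeric columns that hold the authors' own fold changes and tests were not used, and the remaining level of each gene is the authors' mean of normalized counts over all 4 libraries, with both fractions pooled. The values below therefore describe the level of each gene as a mean over the libraries, and not in which fraction its RNA lay. Nuclear and cytoplasmic libraries count equally in this mean, whatever amount of RNA each fraction held in a cell. No value of a single library was analysed, so the spread between replicates is unknown and no test between groups was possible. Steps in the lowest means showed 4 library size factors, from 0.755 to 1.34, so that 1 count in 1 library added between 0.186 and 0.331 to a mean. These steps were not assigned to a fraction. Of the markers fixed as present in the line, the intermediate filament genes VIM and NEFM had means of 18261 and 16264. PAX2, a kidney transcription factor, was low, with a mean of 63.1, at percentile 30.4 of protein-coding genes. The markers of other cell types were close to 0, with means of 1.76 for PTPRC, 0.793 for ALB and 0.293 for HBB.

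All 8 genes had means above the median of protein-coding genes. Their mean normalized counts ran from 1887 for TARDBP to 15250.0 for NONO, with a median of 4884, against a median of 446 over the 17116 protein-coding genes with a mean over 0. Together the 8 genes held 0.211% of the summed means of the table. Such counts grow with the length of a gene, so the percentiles below are those of counts and do not order genes by number of molecules. Per kb of exon, a scale described further on, TAF15 moved from percentile 91.5 to 74.0 and PSPC1 from 90.6 to 93.0.

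The DBHS genes were spread widely. NONO had the highest mean of the 8, 15250.0, at percentile 99.5 of protein-coding genes, and was number 86 in rank. SFPQ followed with 10104, at percentile 98.9. PSPC1, which is named for the paraspeckle, had 2795, at percentile 90.6. It was counted less often than both of its relatives, although its span was the longest of the 8 genes.

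The FET genes also differed from each other. EWSR1, the gene rearranged in Ewing sarcoma, had a mean of 6780.1 (percentile 97.9), and TAF15, which was first described as a factor associated with the TFIID complex, had 2988 (percentile 91.5).

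Of the remaining genes, MATR3 had a mean of 6937 (percentile 97.9), RBM14 had 2589 (percentile 89.3) and TARDBP had 1887 (percentile 83.0). TARDBP was the lowest of the 8 by count. However, 71.6% of its exon length is shared with MASP2, and reads there may not have been counted, as described further on.

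**Figure D1:**
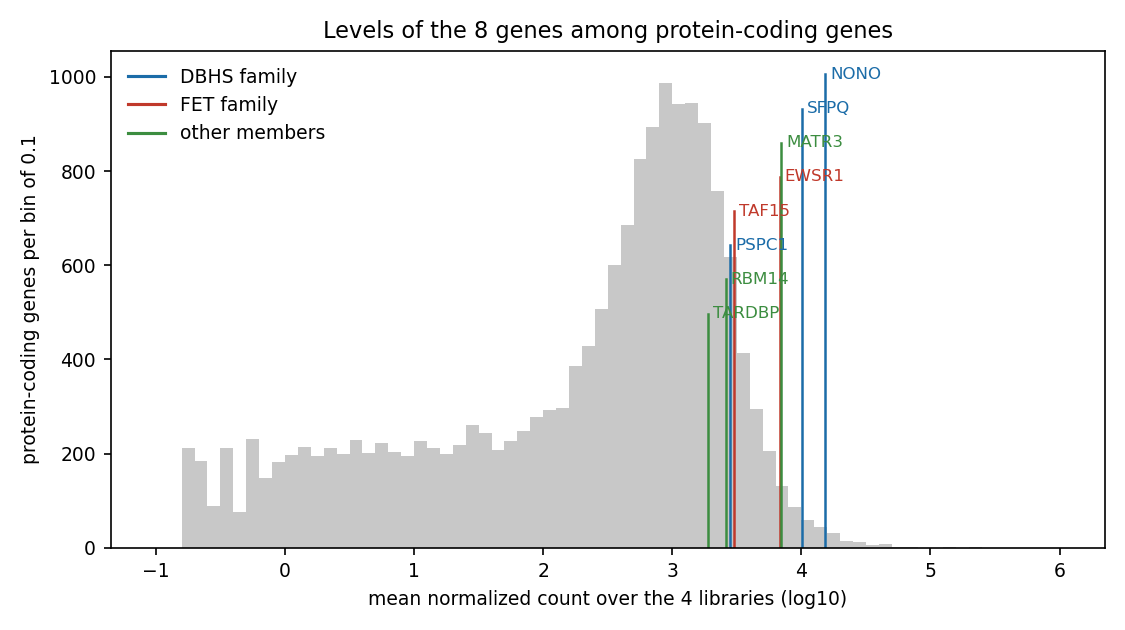
Histogram of the authors' mean normalized count over the 4 libraries (x axis, log10) for protein-coding genes, with the number of genes in each bin of 0.1 on the y axis. Each labelled line marks 1 of the 8 genes, coloured by family, and line heights only separate the labels; all 8 lie on the right side of the distribution, from 1887 for TARDBP to 15250.0 for NONO.

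The counts behind these means were large. A mean of 15250.0 corresponds to between 46030 and 81799 counts over the 4 libraries for NONO, and the mean of TARDBP to between 5696 and 10124, the limits being those that the smallest and largest size factors allow. The counting error of a mean was at most 0.466% of its value for NONO and at most 1.32% for TARDBP, with the other genes between them. This covers counting error only. Variation between cultures adds to it and could not be read from the pooled means.

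To set the genes side by side, each mean was divided by the length of the gene's exons, taken as the union of its annotated exons. NONO and SFPQ were then nearly level and stood apart from the rest, with 1359 and 1309 mean normalized counts per kb of exon. EWSR1 came next at 657, followed by PSPC1 at 580.3 and MATR3 at 575. RBM14 had 399.6, TARDBP 305 and TAF15 219.6. The step from SFPQ down to EWSR1 was 1.99-fold, the widest between neighbours in this order, and the span from NONO to TAF15 was 6.19-fold.

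PSPC1 and MATR3 did not differ beyond counting error, with a gap of 5.29 per kb and a standard error of that gap of at most 7.46. The gap of 50.1 per kb between NONO and SFPQ was larger than its counting standard error of at most 9.81. The other gaps in the order were at least 76.3 per kb, each several times its counting error, but whether any of them exceeds the spread between cultures was not tested. All 8 genes were above the median of 82.0 per kb of exon over 17107 protein-coding genes. TAF15 was at percentile 74.0 on this scale and NONO at 97.9.

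The order changed with the choice of length. Reads in introns were counted together with reads in exons, so neither exon length nor gene span alone fits what was counted. Per kb of gene span, exons and introns included, SFPQ was highest at 591.9 and NONO second at 326, and PSPC1 moved from the fourth place to the last, at 25.8. Per kb of the representative transcript (the MANE Select transcript, which is agreed between the GENCODE and RefSeq annotations), NONO had 5731, EWSR1 2825 and SFPQ 2702, while RBM14 and TARDBP had 482 and 451. NONO and SFPQ were among the highest 3 by each of the 5 measures of length that were tried. No other gene was, and TAF15 ranged from the fourth place per kb of representative transcript to the last per kb of exon.

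**Figure D2:**
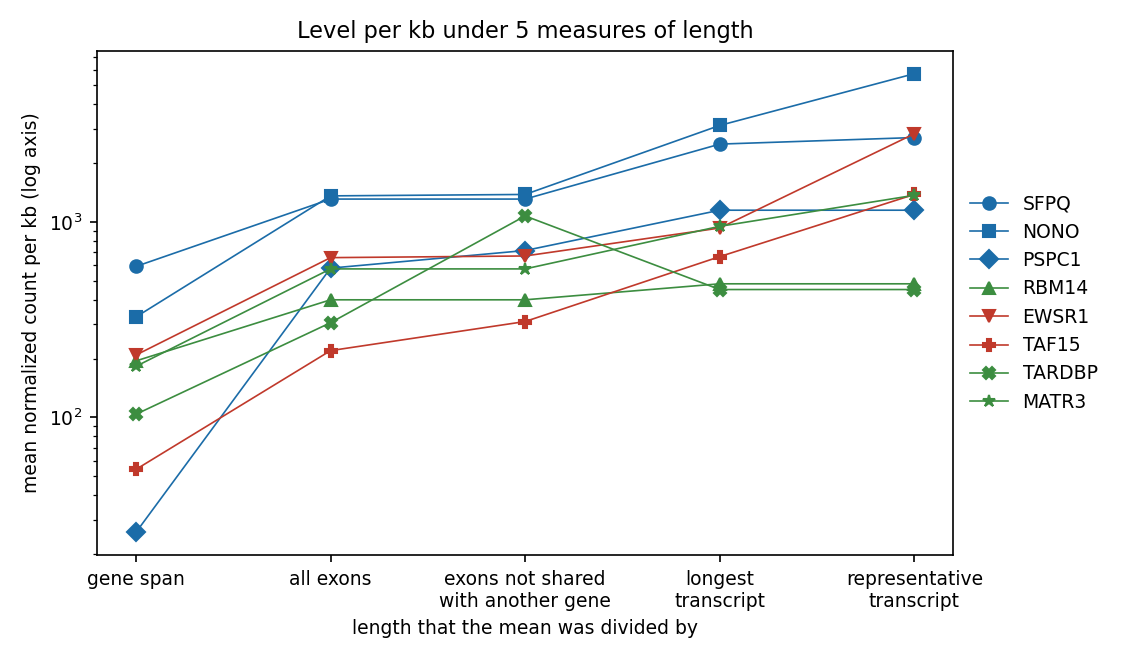
Mean normalized count per kb (y axis, log scale) for the 8 genes under 5 measures of length (x axis), with 1 marker per gene and measure and thin lines that only join the values of a gene. NONO and SFPQ stay near the top throughout, PSPC1 is last per kb of gene span (25.8), and TARDBP rises to 1073 per kb when exons shared with another gene are left out.

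The loci differ strongly in build. Coordinates are those of GENCODE 44 on hg38, the assembly the authors aligned to. PSPC1 (ENSG00000121390, chromosome 13, 19674752 to 19783019, minus strand) spans 108.3 kb, of which 95.6% is intron, with a representative transcript of 2.44 kb in 9 exons. RBM14 (ENSG00000239306, chromosome 11, 66616626 to 66629934, plus strand) spans 13.3 kb, and its representative transcript of 5.37 kb has 3 exons. Between these lie SFPQ (ENSG00000116560, chromosome 1, 35176378 to 35193446, minus strand), with a span of 17.1 kb, and TARDBP (ENSG00000120948, chromosome 1, 11012344 to 11030528, plus strand), with 18.2 kb.

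EWSR1 (ENSG00000182944, chromosome 22, 29268009 to 29300525, plus strand) spans 32.5 kb and has the most exons of the representative transcripts, 17. MATR3 (ENSG00000015479, chromosome 5, 139293674 to 139331677, plus strand) spans 38.0 kb. NONO (ENSG00000147140, chromosome X, 71254814 to 71301522, plus strand) spans 46.7 kb, and TAF15 (ENSG00000270647, chromosome 17, 35809482 to 35864615, plus strand) spans 55.1 kb. The median span of the 8 genes, 35.3 kb, was close to the 32.2 kb of protein-coding genes. Their union of annotated exons was longer, with a median of 9.02 kb against 4.97 kb, and 7 of the 8 were above that value, PSPC1 being the exception. The union pools exons over the annotated transcripts not marked as readthrough, so it grows with their number. The representative transcript of TAF15 has 2.16 kb against a union of 13.6 kb, and that of NONO 2.66 kb against 11.2 kb.

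With exon taken as the same union, intron made up a smaller part of these genes than is usual. Whether this follows from their number of annotated transcripts was not tested. The median was 68.3% of the span, against 84.5% over protein-coding genes, and only PSPC1 was above the latter. GC content of the longest transcript ran from 37.6% for MATR3 to 52.9% for RBM14, and 2 of the 8, RBM14 and SFPQ, were above the protein-coding median of 48.5%. These are properties of the annotation and carry no error from the libraries.

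**Figure D3:**
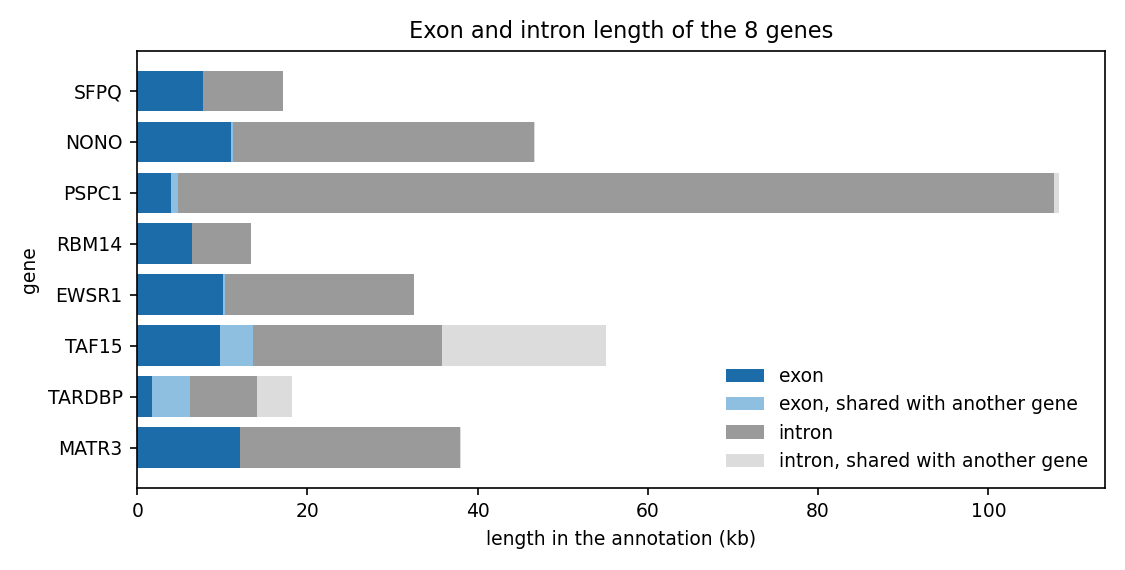
Annotated length in kb (x axis, from 0) of exon and intron for each of the 8 genes (y axis), with the parts that lie in the span of another gene in the paler shade. PSPC1 stands out by its intron length, and TAF15 and TARDBP by the length they share with other genes.

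All 8 genes had more annotated transcripts than the protein-coding median of 7, with a median of 20.0 and a range from 8 for PSPC1 to 40 for NONO. Annotated transcripts with a retained intron numbered 12 for NONO, 8 for MATR3 and 7 each for EWSR1 and TAF15, against a median of 1. PSPC1 had 2 and TARDBP 1, whereas SFPQ and RBM14 had 0. Transcripts marked as targets of nonsense-mediated decay, the pathway that removes mRNAs with an early stop codon, numbered 15 of 38 for TARDBP and 6 of 18 for TAF15, against a median of 0. RBM14, EWSR1 and MATR3 had 0 of that kind. Both kinds can be more numerous where more transcripts are annotated, and their share of transcripts was not compared with that of other genes. The counts per gene cannot be divided among these transcripts, so how much of a level each of them carried is unknown.

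The authors removed from their annotation any stretch covered by more than 1 gene, which bears on 6 of the 8 genes. TARDBP shares 8.52 kb with MASP2, a complement protease gene on the opposite strand, including 71.6% of its exon length. MASP2 itself had a mean normalized count of 7.10. TAF15 shares 42.2% of its span and 29.0% of its exon length with 4 other annotated genes, among them HEATR9 on the opposite strand, which had a mean of 0.210. PSPC1 shares 18.7% of its exon length, mostly with the antisense lncRNA PSPC1-AS2, which had a mean of 5.73.

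NONO and EWSR1 overlap the starts of their divergent neighbours ZMYM3 and RHBDD3 by 333 and 201 bases. MATR3 shares 0.308% of its span with a small pseudogene, and SFPQ and RBM14 share 0 bases once genes made up of readthrough transcripts are set aside, as the authors did. With shared exon left out of the length, TARDBP rose from 305 to 1073 per kb and from the seventh to the third place, PSPC1 moved from 580.3 to 714 and TAF15 from 219.6 to 309, while the other genes changed by less. The overlaps are those of GENCODE 44 and may differ in the authors' GENCODE 34. Whether strand was considered when stretches were removed is not given in the sources used here, so the 2 values of TARDBP are both possible. The count and percentile of TARDBP given above were not adjusted for shared stretches.

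Copies of a gene elsewhere in the genome can share its reads. The table listed 7 pseudogenes named after 5 of the members, and 3 of them had a mean over 0. The copies with the most counts, PSPC1P1 and NONOP2, are shown in the coding stretch of 60 bases where each differs most from the representative transcript of its parent, written 5′ to 3′ from GENCODE 44 transcripts, with capitals at the bases that differ. PSPC1P1 (chromosome 13, 19201637 to 19227432, minus strand) was the closest copy, and only 1 base of the stretch differs (coding positions 1159 to 1218 of PSPC1, counted from 1 at the start codon).
PSPC1: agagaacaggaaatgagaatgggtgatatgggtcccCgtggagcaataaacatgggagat
PSPC1P1: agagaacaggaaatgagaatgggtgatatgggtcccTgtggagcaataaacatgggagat
NONOP2 (chromosome 2, 60936819 to 60938049, minus strand) differs from NONO at 13 of 60 bases in the corresponding stretch (coding positions 643 to 702). Each stretch was picked for its differences, so it does not show how well reads from the rest of a copy can be told apart.
NONO: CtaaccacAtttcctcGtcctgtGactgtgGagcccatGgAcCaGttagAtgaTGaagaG
NONOP2: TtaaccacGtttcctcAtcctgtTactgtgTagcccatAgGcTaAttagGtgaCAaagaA

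PSPC1P1 had a mean of 8.81, which is 39 counts in all, spread over all 4 libraries. Its transcript aligned to PSPC1 over 414 bases at 99.3% identity, and 26.1% of its 566 windows of 100 bases, the read length, were present without a mismatch in a PSPC1 transcript. The introns of PSPC1P1 and PSPC1, in which reads were counted too, were not compared. NONOP2 had a mean of 3.47, or 15 counts, with 80.1% identity over the aligned part and 0 such windows. TARDBPP1 had 1 count, and the remaining 4 copies were listed at 0, which is 0 counts in all 4 libraries. A count of 0 can still arise where the expected number is up to 3 counts in all. PSPC1 held 99.7% of the summed mean of the gene and its copy. By default featureCounts leaves out reads that map to several places, and the only option the authors name for these counts is a minimum overlap of 20 bases, so reads that match both places equally may have been given to neither.

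The 8 genes were last set beside a wider list of 32 genes whose proteins are known from paraspeckles, of which 30 had a row. HNRNPA1 and RBM12 had none, so the list below is without them. Of the 30, 21 (70.0%) were above the protein-coding median per kb of exon, compared with 8 of the 8 members, and their median was 242 per kb of exon against 578 for the members. The highest of the list were HNRNPF at 1839, HNRNPK, needed for the long NEAT1 isoform, at 1777 and RBMX at 1421 per kb of exon. The lowest were DLX3 at 2.54, RUNX3 at 3.12 and CELF6 at 10.3, DLX3 and RUNX3 being transcription factors. EWSR1, at 657 per kb of exon, lay between UBAP2L at 696 and HNRNPH1 at 651, and TAF15, at 219.6, lay below the median of this list. Per kb of gene span the median of the list was 73.3. There 6 of the 8 members were above it, against 7 per kb of exon, with TAF15 at 54.2 and PSPC1 at 25.8 below. With shared exon left out TAF15 had 309 per kb, but the list was not measured in that way.

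NEAT1, the RNA scaffold of the paraspeckle, had a mean normalized count of 2861 over 22.8 kb of exon, or 125.7 per kb. This was lower than each of the 8 protein genes per kb of exon, although per kb of gene span NEAT1 was above TARDBP, TAF15 and PSPC1. The exon length of NEAT1 equals its gene span, 22.8 kb, and no shorter length was tried, so its place below the 8 genes depends on that length. The short and long NEAT1 transcripts share their start and cannot be separated in a count per gene.

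**Figure D4:**
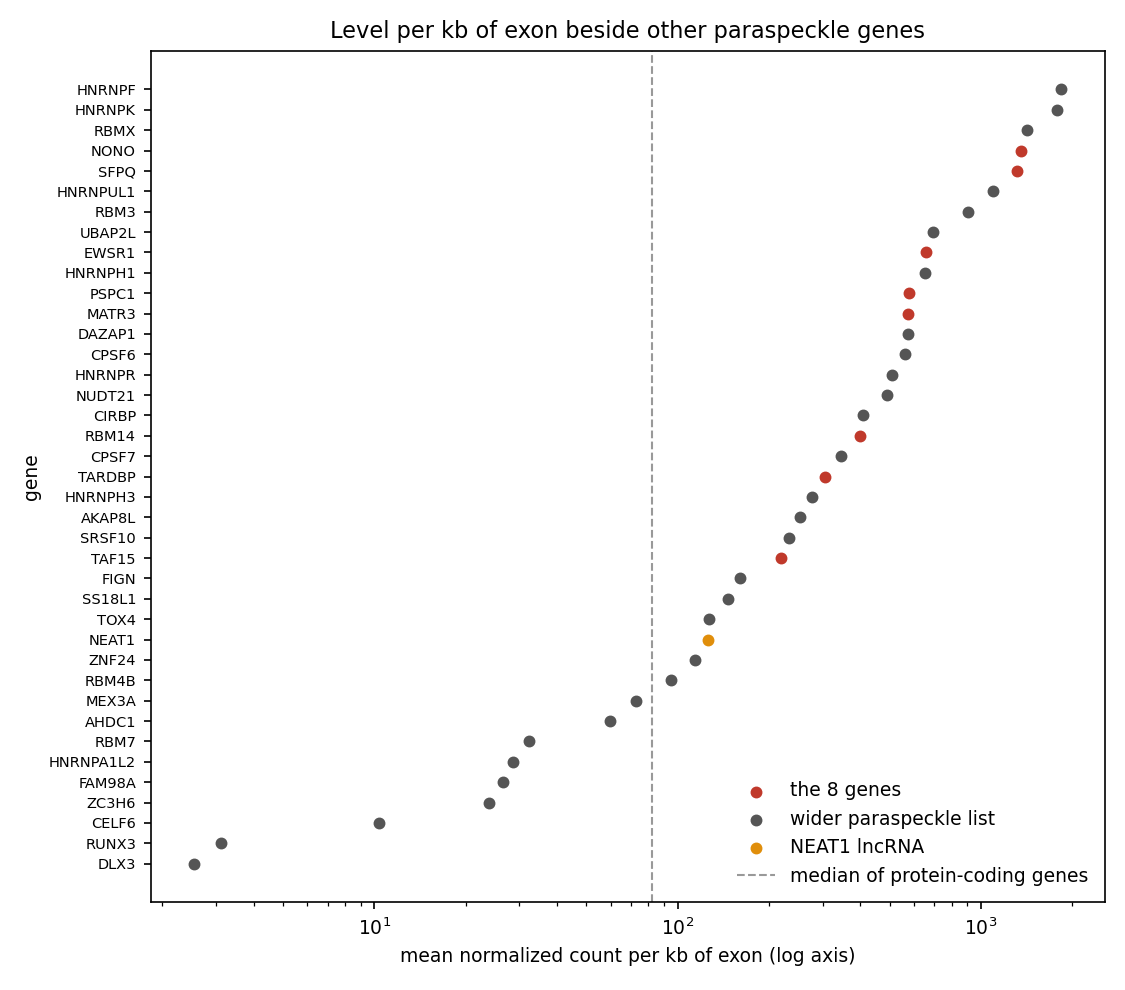
Mean normalized count per kb of exon (x axis, log scale) for the 8 genes, the 30 genes of the wider paraspeckle list and NEAT1, in order of level, with the dashed line at the protein-coding median of 82.0. All 8 genes lie to the right of the line, and 3 genes of the wider list, HNRNPF, HNRNPK and RBMX, lie above NONO.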

How the data were processed

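Strand-specific libraries of 2 nuclear and 2 cytoplasmic samples, depleted of ribosomal RNA and each begun from 400 ng, were sequenced as paired reads of 100 nt. With equal input mass, a level is a share of its library, which says nothing of the amount in a cell. The authors aligned reads to hg38 with STAR, counted exonic and intronic reads per gene with featureCounts 2.0.2 on a modified GENCODE 34 annotation and normalized with DESeq2. The deposited signal of a gene is its normalized count, averaged by the authors over all 4 libraries. The fold change, standard error, statistic and both p-value columns of the authors' own comparison were not used. No depth per library was computed beyond the size factors.

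All 9806 rows with a mean of at most 2 and over 0 were whole-number combinations of 4 steps (tolerance 3e-09 per count), and the step finder was tested on simulated data. Identifiers were matched without version to GENCODE 44, and 99.9% of protein-coding genes had a length. Copies were aligned with blastn 2.17.0. Tables were made with pandas 2.3.3 in Python 3.11.15. The named genes were the 8 members, NEAT1, copies named after a member, overlapping genes, and the 3 highest and 3 lowest of the wider list, with HEK293T markers. UBAP2L and HNRNPH1 were named after their values were seen, as the neighbours of EWSR1. A further gene, fixed beside these lists, is not reported here. The members and lists were chosen with earlier results of these data known.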

Additional observations from a re-analysis of the deposited data

How the results depend on the processing

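The median percentile of the 8 means was 94.7 among protein-coding genes with a mean over 0, 92.5 among those with a mean over 50, and 97.1 among genes of every biotype. The median level was 578 per kb of exon, 189 per kb of gene span and 940.1 per kb of the longest transcript. With the representative transcript and with shared exon left out, alternatives chosen after the data were seen, it was 1375 and 692. These differences follow from the lengths themselves. Counting processed pseudogenes alone changed the own share of PSPC1 from 99.7% to 100%, since its copy is of another class.

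No paired analysis was possible because the values used hold no level of a single library. For the same reason the edgeR and DESeq2 fits, the filter on low counts and leaving out a replicate were not run, and whether 1 library decides a level is not known.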
